A study of Macaca fascicularis and Macaca mulatta and Papio anubis with 20 samples.

Results

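Class A spots were the capture spots richest in 4 fibroblast transcripts in sections of dorsal root ganglia of the crab-eating macaque, *Macaca fascicularis*. For each spot under tissue with at least 500 unique molecular identifiers (UMIs, each standing for 1 captured transcript), the UMIs of SFRP4, MFAP5, FBLN1 and IGFBP6 were summed and expressed per 10000 UMIs of the spot. Class A held the spots with a score above 0 that lay at or above the 95th percentile of their own section, and class B held all other such spots. There were 744 class A and 13980 class B spots among 14724 spots with enough UMIs, out of 21897 tissue spots of this species and 32952 in all sections analysed. The 4 transcripts chose the spots, so their levels in class A are a description and carry no test below, except where a marker was left out of the score.

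Connective tissue wraps a sensory ganglion and its nerve in layers. Fibroblasts of the outer coat, the epineurium, and of vessel adventitia secrete collagens, small proteoglycans and elastic fibre proteins, while perineurial cells form a tight, glucose-transporting sheath around nerve fascicles and meningeal cells line the root where it meets the spinal coverings. Of the markers that chose the spots, SFRP4 encodes a secreted antagonist of WNT signalling, MFAP5 a microfibril glycoprotein, FBLN1 the matrix glycoprotein fibulin-1 and IGFBP6 a binding protein with a preference for insulin-like growth factor II.

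Fresh frozen dorsal root ganglia were cut at 10 µm, with sections 100 µm apart, stained with haematoxylin and eosin and measured by Visium, in which tissue lies on printed, barcoded spots. The 15 *M. fascicularis* sections used carried 4 title codes: a female and a male code in batch 1 with 4 sections each, a female code in batch 2 with 4 sections, and a male code in batch 2 with 3 sections, while its section 3 was not analysed here. Each code was treated as 1 specimen, which is an assumption that the labels do not settle, and no treatment, strain or age was labelled. The question was how the spots with the highest fibroblast score differed from other spots of the same sections in position and in the transcripts they held. Each spot samples several cells, often of several types, so values are levels and shares of spots, and fewer cells of a type and less RNA per cell cannot be told apart. Sections of 1 specimen are not independent, and specimens were the replicates of the main tests. The sign permutation p-values rest on these 4 specimens and are 0.125 whenever all 4 share a sign, whatever their spread. The edgeR p-values borrow the spread of other genes, with 62.5 prior against 3 residual degrees of freedom in class A against class B. Small edgeR p-values therefore do not rest on the 4 specimens alone.

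Tissue UMIs per section ran from 1136433 to 7073134. Class A contributed 288419 UMIs in the female of batch 1, 387324 in the male of batch 1, 164391 in the female of batch 2 and 142480 in the male of batch 2. The class B sums of the same specimens ran from 5748628 to 18721592 UMIs. Sections of a specimen differed by a chi-square per degree of freedom of at least 3.93 in each of 21 pairs, so none was a copy of another. Of 4554 barcodes under tissue, 3912 occurred in more than 1 section, since the slides carry the same printed set.

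Sections 1 and 4 of the male and section 3 of the female of batch 2 stood apart. Their class A spots held a median of 1 to 2 marker UMIs, against 4 to 34.5 in the other 12 sections, and between 10.2% and 22.7% of them held at least 3 marker UMIs, against 80.3% to 100% elsewhere. These 3 sections held 118 of the 744 class A spots, and counts for the main comparisons are also given without them. Over all sections, 624 class A spots (83.9%) held at least 3 marker UMIs, with 100% in both specimens of batch 1, 75.5% in the female of batch 2 and 47.3% in the male of batch 2. The name "fibroblast-rich" therefore rested on few counted transcripts in part of batch 2.

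**Figure D1:**
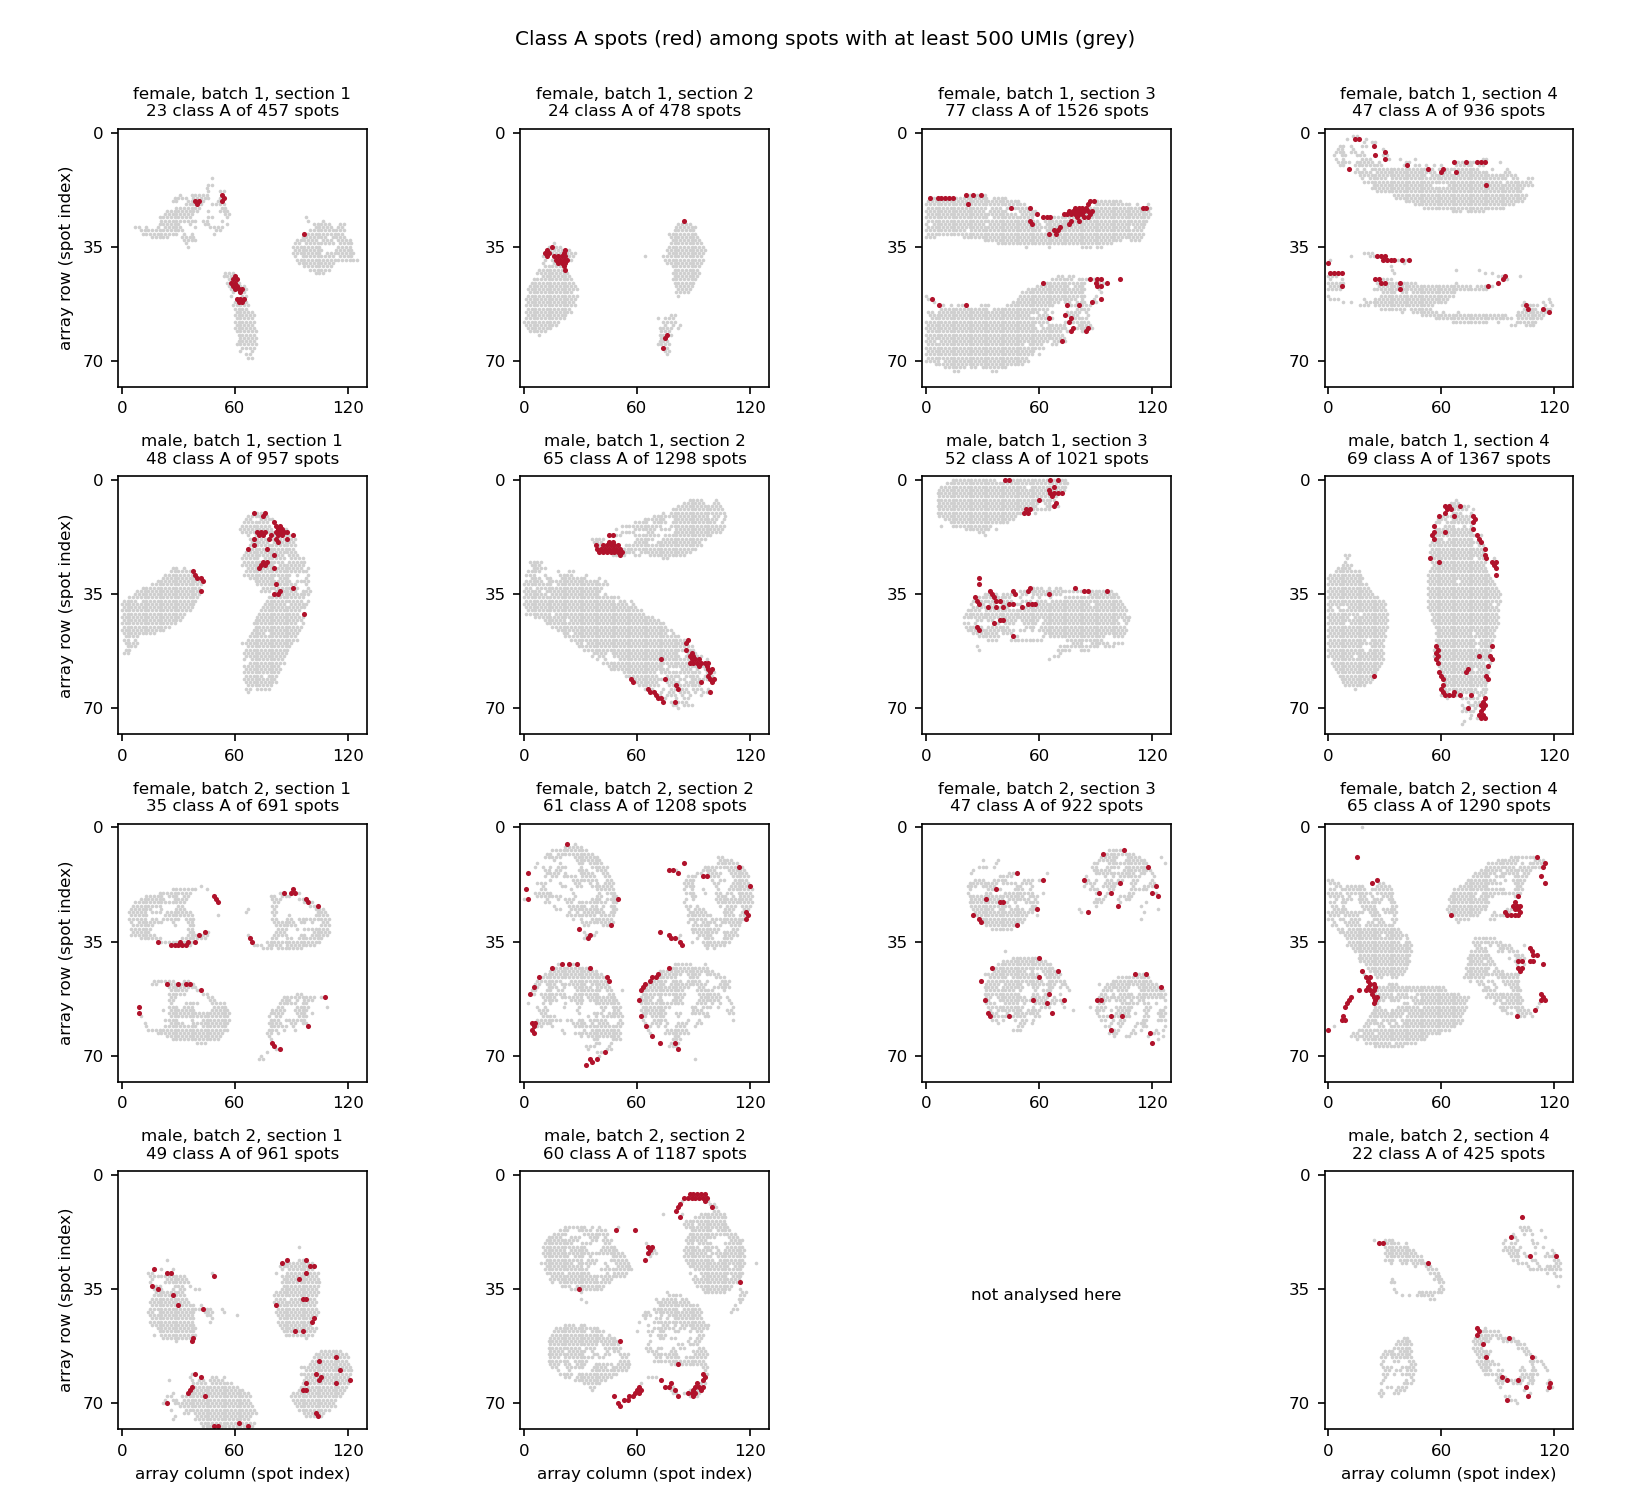
Maps of the 15 sections on the capture array (axes are array column and row, in spot indices): red points are class A spots and grey points class B spots, and each panel gives their number. Class A held between 22 and 77 spots per section, gathered into patches in sections of both batches. It was scattered in section 3 of the female and sections 1 and 4 of the male of batch 2. The share at the tissue edge was higher in class A than in class B in 14 of 15 sections, the exception being section 1 of the female of batch 1.

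Within class A the mixture of markers differed between batches. In batch 1 the section percentile that defined class A lay between 72.3 and 201.6 marker UMIs per 10000, and in batch 2 between 6.04 and 186.1. Scores just inside and just outside the threshold were close in every section, from 6.04 against 6.01 in the section with the lowest threshold to 202.7 against 201.3 in that with the highest. IGFBP6 supplied 30.7% to 68.0% of the marker UMIs of class A in sections of batch 1 and 78.6% to 90.7% in batch 2. SFRP4 supplied 21.7% to 59.2% in batch 1 and 2.56% to 8.86% in batch 2. The batches also differed in the Space Ranger version named in the file headers, and its part in this difference was not tested. Of the class A spots, 93.0% of the female and 93.2% of the male of batch 1 held at least 2 of the 4 markers, against 58.7% and 31.3% in batch 2.

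Each marker was higher in class A when it was left out of the score, so that the other 3 chose the spots. In those spots SFRP4 reached 4249 and 5035 CPM (UMIs of the gene scaled to a common library total) in the female and male of batch 1, and 570.5 and 147.4 CPM in the female and male of batch 2. Class B held 199.8, 236.1, 10.6 and 5.74 CPM in the same order. All 4 specimens were higher in class A, with levels of batch 2 class A overlapping those of batch 1 class B. The rise of SFRP4 was 4.76 ± 0.26 (log2, SE, n = 4 specimens; edgeR quasi-likelihood test with specimen as a block, adjusted p = 1.3e-25, with 25.9% of all genes called in that comparison). MFAP5 stood at 317 ± 205 CPM (SD, n = 4) in class A and 14.3 ± 9.05 in class B, a log2 rise of 4.45 ± 0.21 (SE; 26.7% of genes called). FBLN1 stood at 544 ± 321 CPM (SD, n = 4) and 27.6 ± 14.7, a log2 rise of 4.26 ± 0.20 (SE; 26.7% called). The levels of MFAP5 and FBLN1 in class A and class B did not overlap between specimens.

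IGFBP6 was the marker with the smallest rise when held out. Its level was 5688 and 5698 CPM in the class A spots of batch 1, 3211 in the female and 792.8 in the male of batch 2, against 552.4, 532.4, 282.2 and 168.9 CPM in class B. The groups did not overlap, and the log2 rise was 3.13 ± 0.24 (SE, n = 4; edgeR adjusted p = 1.1e-07), in a comparison in which 8.63% of genes were called. Held-out SFRP4, MFAP5 and IGFBP6 were higher in class A in 14 of 15 sections each, and FBLN1 in 13. The exceptions all lay in the 3 sections with few marker UMIs: SFRP4 and FBLN1 had 0 UMIs in class A of section 3 of the female of batch 2, FBLN1 in section 1 and MFAP5 in section 4 of the male. In section 1 of that male, IGFBP6 stood at 69.99 CPM in class A and 75.6 CPM in class B. Without the 3 sections the rises were 4.97 for SFRP4, 4.67 for MFAP5, 4.47 for FBLN1 and 3.77 for IGFBP6.

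**Figure D2:**
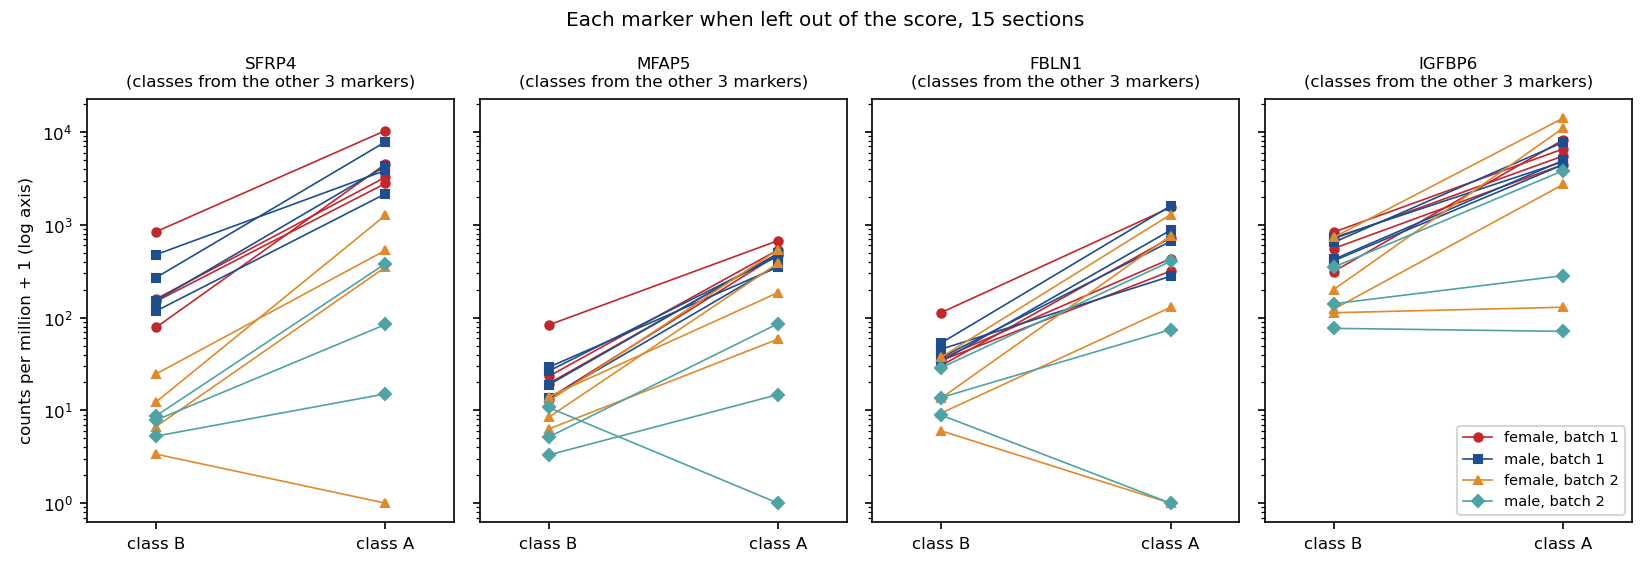
CPM plus 1 (log axis) of each marker in class B and class A, with classes chosen by the other 3 markers; each line joins the 2 classes of 1 of 15 sections, coloured by specimen. Lines rise from class B to class A except for SFRP4 in 1, MFAP5 in 1, FBLN1 in 2 and IGFBP6 in 1 section, all in batch 2.

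Class A spots lay next to each other, a property of position that the score did not use. Of the spots adjoining a class A spot on the hexagonal grid, 43.0% were class A in the female of batch 1, 39.2% in the male of batch 1, 32.4% in the female of batch 2 and 28.7% in the male of batch 2. The share of class A among all spots with a neighbour was 4.91% ± 0.14 (SD, n = 4). The share next to class A was above this base in 15 of 15 sections and 4 of 4 specimens, by 30.9 ± 6.43 percentage points (SD, n = 4; exact two-sided sign permutation p = 0.125, the smallest that 4 specimens can give). It ran from 25% to 64.6% in the 12 other sections and from 5.88% to 11.6% in the 3 with few marker UMIs. Between 4.35% and 50.8% of class A spots had no class A neighbour in the 12 sections, against 57.1% to 83.0% in those 3.

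Class A was also frequent at the tissue border, defined as spots with fewer than 6 neighbours under tissue. Border spots made up 45.7% and 46.6% of class A in the female and male of batch 1, and 56.5% and 53.3% in the corresponding specimens of batch 2. In class B they made up 28.8%, 19.7%, 16.6% and 29.8% in the same order. Every specimen was higher in class A, and the levels did not overlap. The difference was 26.8 ± 9.71 percentage points (SD, n = 4; exact two-sided sign permutation p = 0.125, the smallest possible). It held in 14 of 15 sections, with 30.4% of class A and 44.0% of class B at the border in section 1 of the female of batch 1. In the 3 sections with few marker UMIs, 31.9% to 72.7% of class A and 6.29% to 42.7% of class B lay at the border, against 30.4% to 77.1% and 12.1% to 44.0% in the other 12.

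Class A spots were shallower than class B spots. The median class A spot of a section held 617 to 2238.5 UMIs and the median class B spot 1158 to 8366.5. On the log2 scale the ratio of medians averaged -1.16 in the female of batch 1, -0.99 in the male of batch 1, -1.99 in the female of batch 2 and -0.92 in the male of batch 2. It was below 0 in 15 of 15 sections, with a mean of -1.27 ± 0.50 (SD, n = 4; exact two-sided sign permutation p = 0.125). Spot UMIs are the divisor of the score, so the test of class A against class B, its gene lists and the batch and sex comparisons were repeated with class A drawn within quartiles of spot UMIs. The held-out markers, position, overlap with other spot sets and the comparisons with other spots were not repeated in that way.

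Class A carried more matrix and fibroblast transcripts and fewer neuronal ones than class B. UMIs were summed per specimen and class, and 10094 genes were tested in edgeR with specimen as a block and Benjamini-Hochberg adjustment, with the 4 markers kept out of the test. At an adjusted p under 0.05, 2703 genes (26.8%) passed, of which 1286 (12.7%) were higher and 1417 (14.0%) lower in class A. With class A drawn within depth quartiles, 717 genes were higher and 403 lower, and 1040 of these 1120 genes were among the 2703 with the same direction. Of the 2671 genes that passed at first and were tested again, 58 changed sign. Without the 3 sections with few marker UMIs, 1427 genes were higher and 1359 lower. The score of class A leans on IGFBP6, and without that marker in the score 660 genes were higher (6.50% with the marker itself) and 216 lower (2.12%). Without the male of batch 1, the total was 1267 genes, and without the female of batch 1 it was 1422.

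The 15 genes named here encode mostly secreted and matrix proteins. They had the largest rise among called genes with a symbol and a mean of at least 5 CPM. The rule also asked for the same direction in 4 of 4 specimens and at least 13 of 15 sections, so genes outside it can have larger rises. MGP, matrix Gla protein, an inhibitor of calcification, stood at 1286 and 1216 CPM in the female and male class A of batch 1, and at 803 and 315.8 CPM in the later batch. In class B it stood at 48.8, 46.6, 34.1 and 8.87 CPM. The classes did not overlap, class A was higher in 15 of 15 sections, and the log2 rise was 4.73 ± 0.20 (SE, n = 4; edgeR adjusted p = 1.5e-29). Levels of 16.2% of all genes tested did not overlap between the classes, and 6.58% were higher without overlap.

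PLA2G2A, a secreted phospholipase that marks adventitial fibroblasts, had the largest fitted rise of these 15 genes, 5.15 ± 0.29 (log2, SE, n = 4). Its levels split by batch: 38.1 and 23.2 CPM in class A of batch 1 against 6576 and 2520 CPM in class A of batch 2. Class B held 0.31 and 1.01 CPM in batch 1, and 170.3 and 86.5 CPM in batch 2. Class A was higher in every specimen, while class B of batch 2 exceeded class A of batch 1, and the gene did not pass without the specimen block (edgeR adjusted p = 0.119). PTGDS, the prostaglandin D synthase that meningeal cells and perivascular fibroblasts make in quantity, stood at 4358, 6684, 3790 and 1397 CPM in class A of the female and male of batch 1 and of batch 2. In class B it stood at 489.8, 569.8, 161.4 and 56.0 CPM. Its classes did not overlap, and the rise was 3.94 ± 0.24 (log2, SE), seen in 15 of 15 sections.

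The other genes of this group belonged to several roles. CFB, complement factor B, rose by 4.71 ± 0.26 (log2, SE), from 7.45 ± 5.26 CPM in class B to 193 ± 185 in class A (SD, n = 4). The collagen-binding proteoglycan fibromodulin, FMOD, rose by 4.40, the WNT antagonist SFRP2 by 4.32, the fibulin EFEMP1 by 4.27 and the collagen-binding protein AEBP1 by 3.88. In class A of the male of batch 2, FMOD and SFRP2 each stood at 7.02 CPM, which is 1 UMI. SULF1, a heparan sulfate sulfatase, rose by 4.11, and ACKR3, a scavenger receptor for the chemokine CXCL12, by 4.03. CLDN11, a tight junction protein, and ZIC1, a transcription factor of meningeal and dorsal neural lineages, rose by 4.26 and 4.03. MEDAG, a gene linked to adipocyte differentiation, ECRG4, a secreted peptide precursor, and PROCR, the protein C receptor, rose by 4.34, 3.93 and 3.86. Drawn within depth quartiles, all 15 genes passed the test, with log2 rises of 2.46 to 3.36. Without the 3 sections with few marker UMIs all 15 passed too, with log2 rises of 4.09 to 5.39.

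**Figure D3:**
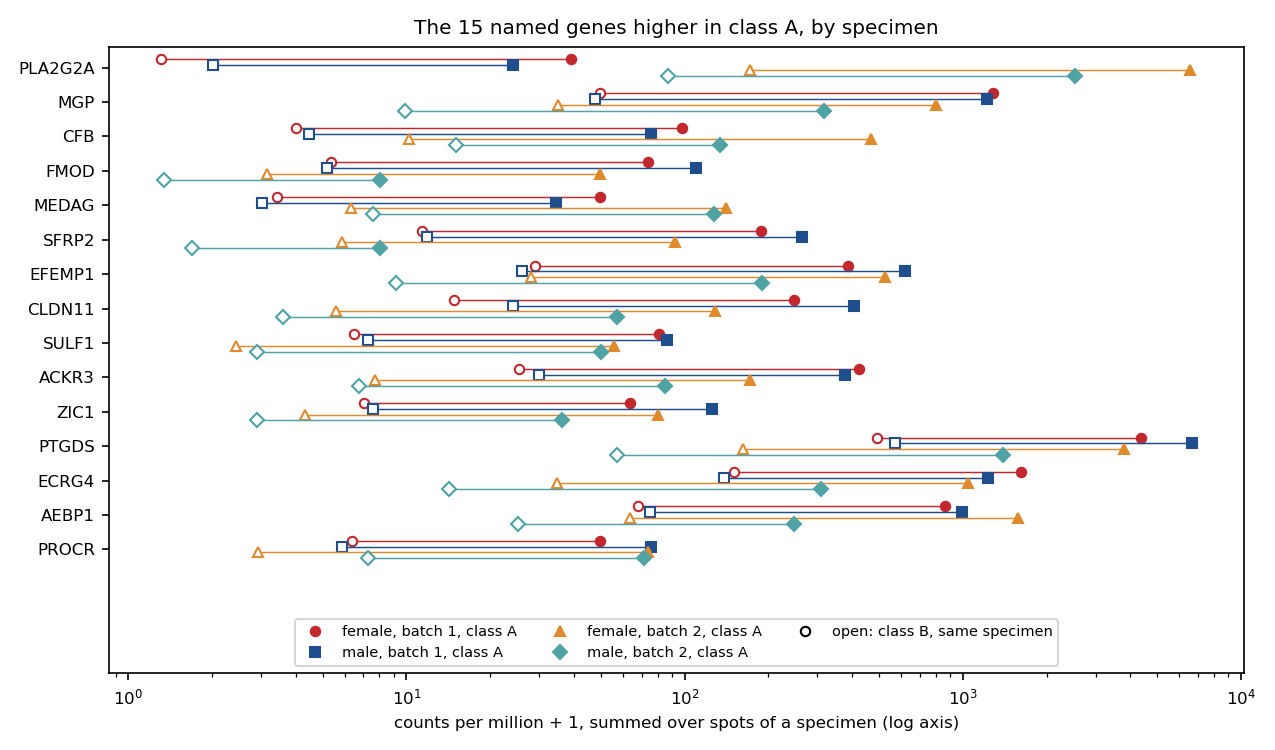
The 15 genes with the largest rise in class A among those that met the naming rule: each specimen's CPM plus 1 (log axis) in class A (filled) and class B (open), joined by a line and coloured by specimen. Every line runs to the right, towards class A, and for PLA2G2A the specimens of batch 2 lie far to the right of those of batch 1 in both classes.

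The 10 genes with the largest fall under the same rule were rare transcripts, and their values in class A rested on few UMIs. KCNK18, a potassium channel of sensory neurons, had 0 UMIs among 982614 in class A and 591 UMIs in class B. With a floor of 3 UMIs over class A it was at least 3.30-fold lower. INSC, an adaptor of cell polarity, had 1 UMI in class A and 1130 in class B, a ratio of 0.053 (exact 95% interval 0.0013 to 0.295, counting error only). DNAJC6, the auxilin of clathrin uncoating in nerve terminals, had 4 UMIs in class A and 2145 in class B, and fell by 3.08 ± 0.54 (log2, SE; edgeR adjusted p = 5.5e-06). IZUMO2, TMEM65, CHP2, TRAF3, DYSF and CHAC2 had 1 or 2 UMIs each in class A against 543 to 1221 in class B. Of these 10 genes, 6 passed the test with class A drawn within depth quartiles, 2 without IGFBP6 in the score and 1 within batch 2.

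Transcripts of outer-sheath and adventitial fibroblasts were higher in class A. Of the 25 listed genes, 17 passed the filter on low counts, and 16 of these rose and 0 fell, with a median log2 difference of 2.52 against -0.04 over all genes tested. A gene can pass that filter through its level in class A alone, so counts over tested members are a description. They stand beside 12.7% of all genes higher and 14.0% lower. Within depth quartiles 717 and 403 of 10174 genes were higher and lower, and without border spots 847 and 1011 of 9481. Without smooth muscle spots 888 and 1083 of 9961 were, without the 3 sections with few marker UMIs 1427 and 1359 of 8172, and with sections as samples 1129 and 1651 of 6701. DCN, decorin, stood at 5163 and 3914 CPM in class A of batch 1 and at 3254 and 877 CPM in class A of batch 2. Class B held 651.5, 524.4, 222.5 and 112.5 CPM. The classes did not overlap, and DCN rose by 3.16 ± 0.22 (log2, SE, n = 4; edgeR adjusted p = 2.1e-19). GSN, the actin-severing protein gelsolin, stood at 3429, 3651, 2762 and 2204 CPM in class A and at 644.3, 586.3, 673.4 and 708 CPM in class B. Its level was even across specimens and batches, with a rise of 2.17 ± 0.21 (log2, SE). CCDC80, a matrix-associated protein, rose by 4.07, the secreted protease inhibitor SLPI by 2.79, and PI16, which marks adventitial fibroblasts in many tissues, by 2.18. APOD, the lipid carrier apolipoprotein D, was abundant in both classes, at 5974 ± 2523 CPM in class A and 2517 ± 1165 in class B (SD, n = 4), and rose by 1.24. PCOLCE2 did not pass, with a difference of -0.63 ± 0.77 (log2, SE) on 4 UMIs in class A.

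The summed level of this list was higher in class A in 15 of 15 sections. Its log2 ratio ran from 1.39 to 2.97 in the 12 sections with more marker UMIs. In the other 3 sections it was 2.56 in the female of batch 2, and 0.86 and 0.37 in sections 1 and 4 of the male. Without these 3 sections, 16 of 16 tested genes rose, with a median of 2.88. Within depth quartiles, 15 of 17 rose, with a median of 1.60, and with border spots left out of both classes 15 of 17 rose, with a median of 2.49.

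Perineurial transcripts rose as well, with 8 of 9 tested genes of 15 listed passing and 0 falling (median 2.11). Within depth quartiles 7 of 8 rose (median 1.37), and without the 3 sections with few marker UMIs 6 of 6 did. SLC2A1, the glucose transporter of the perineurial barrier, stood at 1335, 1213 and 1071 CPM in class A of the female and male of batch 1 and the female of batch 2, and at 140 CPM in the male of batch 2. In class B it stood at 99.8, 128, 89.5 and 55.8 CPM. Class A of every specimen lay above class B of every specimen, and the rise was 3.13 ± 0.23 (log2, SE, n = 4; edgeR). TJP1, a scaffold of tight junctions, rose by 2.21, GJA1, a gap junction channel, by 2.01 and ITGB4, an integrin subunit, by 1.58. CLDN1, the perineurial claudin, rose by 2.62 ± 0.80 (log2, SE) on 7 UMIs in class A. Of the perineurial list, 2 members were at 0 in class A.

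Of the endoneurial fibroblast list, 2 of 5 tested genes of 11 listed passed, both upward, and the median was 0.03. These calls depended on the sections: without the 3 with few marker UMIs 1 of 4 rose and 2 fell (median -0.23), with each section as a sample 1 of 3 rose and 2 fell (median -0.49), and within depth quartiles 1 rose and 0 fell. WIF1, a secreted WNT inhibitor, rose by 2.80 and PLXDC1 by 0.83. ABCA8, the most abundant gene of the list, stood at 415 ± 229 CPM in class A and 537 ± 261 in class B (SD, n = 4), a difference of -0.46 ± 0.19 (log2, SE; edgeR adjusted p = 0.067). Of the meningeal list, 4 of 7 tested genes of 12 listed rose and 0 fell, with a median of 2.67. They were PTGDS, ZIC1, the transporter SLC47A1, by 3.64, and ITIH2, by 2.67 on 17 UMIs. ALDH1A1, SLC22A6 and CDH1 did not pass, at 0.38, -0.40 and -0.16. Without the 3 sections with few marker UMIs, 4 of 6 tested meningeal genes rose.

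Matrix genes were described by kind. All 8 tested small leucine-rich proteoglycans of 12 listed rose, with a median of 3.53 and a summed level of 5055 ± 3011 CPM in class A against 620.5 ± 491.6 in class B (SD, n = 4). OGN, osteoglycin, rose by 3.60, BGN, biglycan, by 3.57, PRELP by 3.78 and PODN, podocan, by 3.48. LUM, lumican, rose by 1.88, at 1227 and 909 CPM in class A of batch 1 and 30.4 and 14.0 CPM in class A of batch 2. All 8 passed with class A drawn within depth quartiles, with a median of 2.23.

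Of 11 tested collagen chains of 20 listed, 9 rose and 0 fell, with a median of 2.01. Within depth quartiles 7 of 10 rose (median 1.04), and without the 3 sections with few marker UMIs 9 of 11 did. COL1A1, a chain of the main fibrillar collagen, stood at 967 and 829 CPM in class A of batch 1 and at 24.3 and 7.02 CPM in class A of batch 2. Class B held 154.1 and 107.9 CPM in batch 1, and 0.61 and 2.09 in batch 2. The class A levels of batch 2 rested on few UMIs, with 7.02 CPM in the male standing for 1 UMI. Class A was higher in 4 of 4 specimens and the rise was 2.83 ± 0.24 (log2, SE, n = 4; edgeR), but class B of batch 1 lay above class A of batch 2. COL3A1 followed the same split, with 582 and 674 CPM in class A of batch 1 and 0 and 21.1 CPM in batch 2, and rose by 2.99. The low collagen level of batch 2 was seen in both classes, and its source was not tested. COL4A1 and COL4A2, basement membrane chains, rose by 2.00 and 1.35, and COL16A1, a fibril-associated chain, by 3.04. COL5A2 and COL5A3 did not pass, at 0.66 and 0.46.

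Of 13 tested genes of elastic fibres and microfibrils of 20 listed, 11 rose, with a median of 2.099, and within depth quartiles 11 of 13 did, with a median of 1.23. ELN, elastin, rose by 3.93 on 54 UMIs in class A, MFAP4 by 3.22, and LOXL1, which crosslinks elastin, by 1.91. FBLN5 stood at 162 ± 58.7 CPM in class A and 168 ± 69.5 in class B (SD, n = 4), a difference of -0.08 ± 0.19 (log2, SE). Among other matrix genes, 12 of 16 tested of 27 listed rose, with a median of 1.81, including TNC, tenascin, by 3.36, the thrombospondin THBS4 by 3.70 and FN1, fibronectin, by 1.98. SPARC and SPARCL1, which many cell types of the ganglion make, did not pass, at 0.39 and -0.28.

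Proteases and their inhibitors rose in 10 of 15 tested genes of 20 listed, and 1 fell. TIMP1, an inhibitor of matrix metalloproteinases, stood at 1172, 780, 1758 and 1586 CPM in class A of the 4 specimens in the order above, and at 234, 189, 148 and 396 CPM in class B. No class A level lay below a class B level, and TIMP1 rose by 2.46 ± 0.21 (log2, SE, n = 4; edgeR). CTSK, cathepsin K, rose by 2.95 and PCOLCE, an enhancer of procollagen processing, by 2.66. HTRA1, a secreted serine protease, fell by 0.51 (edgeR adjusted p = 0.033), and no gene of this list fell within depth quartiles, in thinned spots or without border or smooth muscle spots. Within depth quartiles 7 of 13 protease and inhibitor genes rose (median 1.03).

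Secreted regulators of growth factor signalling were also higher in class A. Of WNT modulators, 5 of 7 tested genes of 17 listed rose, with SFRP2 at 4.32, SFRP5 at 2.08 and FRZB at 1.39, while DKK3 did not pass, at -0.11. RSPO1, an enhancer of WNT signalling, rose by 5.13 on 31 UMIs in class A. Of the insulin-like growth factor axis, 6 of 8 tested genes of 14 listed rose, 5 of 8 within depth quartiles, and 6 of 6 without the 3 sections with few marker UMIs. IGFBP4, a binding protein, stood at 1224, 888, 2464 and 821 CPM in class A and at 205, 178, 142 and 221 CPM in class B. Its classes did not overlap, with a rise of 2.71 ± 0.23 (log2, SE). IGFBP5 rose by 3.68 and the ligand IGF2 by 3.48, while the receptor IGF1R did not pass, at 0.80 ± 0.58. Of the TGF-beta and BMP axis, 7 of 9 tested genes of 22 listed rose, among them the BMP antagonist CHRDL1, by 2.95, and the receptor TGFBR2, by 1.72. The ligand TGFB1 did not pass, at 0.37 ± 0.68 on 7 UMIs.

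Of 8 tested complement genes of 15 listed, 5 rose and 1 fell, beside 12.7% of all genes higher and 14.0% lower. Those that rose included CFB, the C1 inhibitor SERPING1, by 2.28, C2, by 1.75, and the protease C1S, by 1.70. C1S stood at 310 ± 27.5 CPM in class A and 98.2 ± 29.9 in class B (SD, n = 4), an even level across specimens. CD55, which limits complement at cell surfaces, fell by 1.06, and CLU, clusterin, did not pass, at -0.28.

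**Figure D4:**
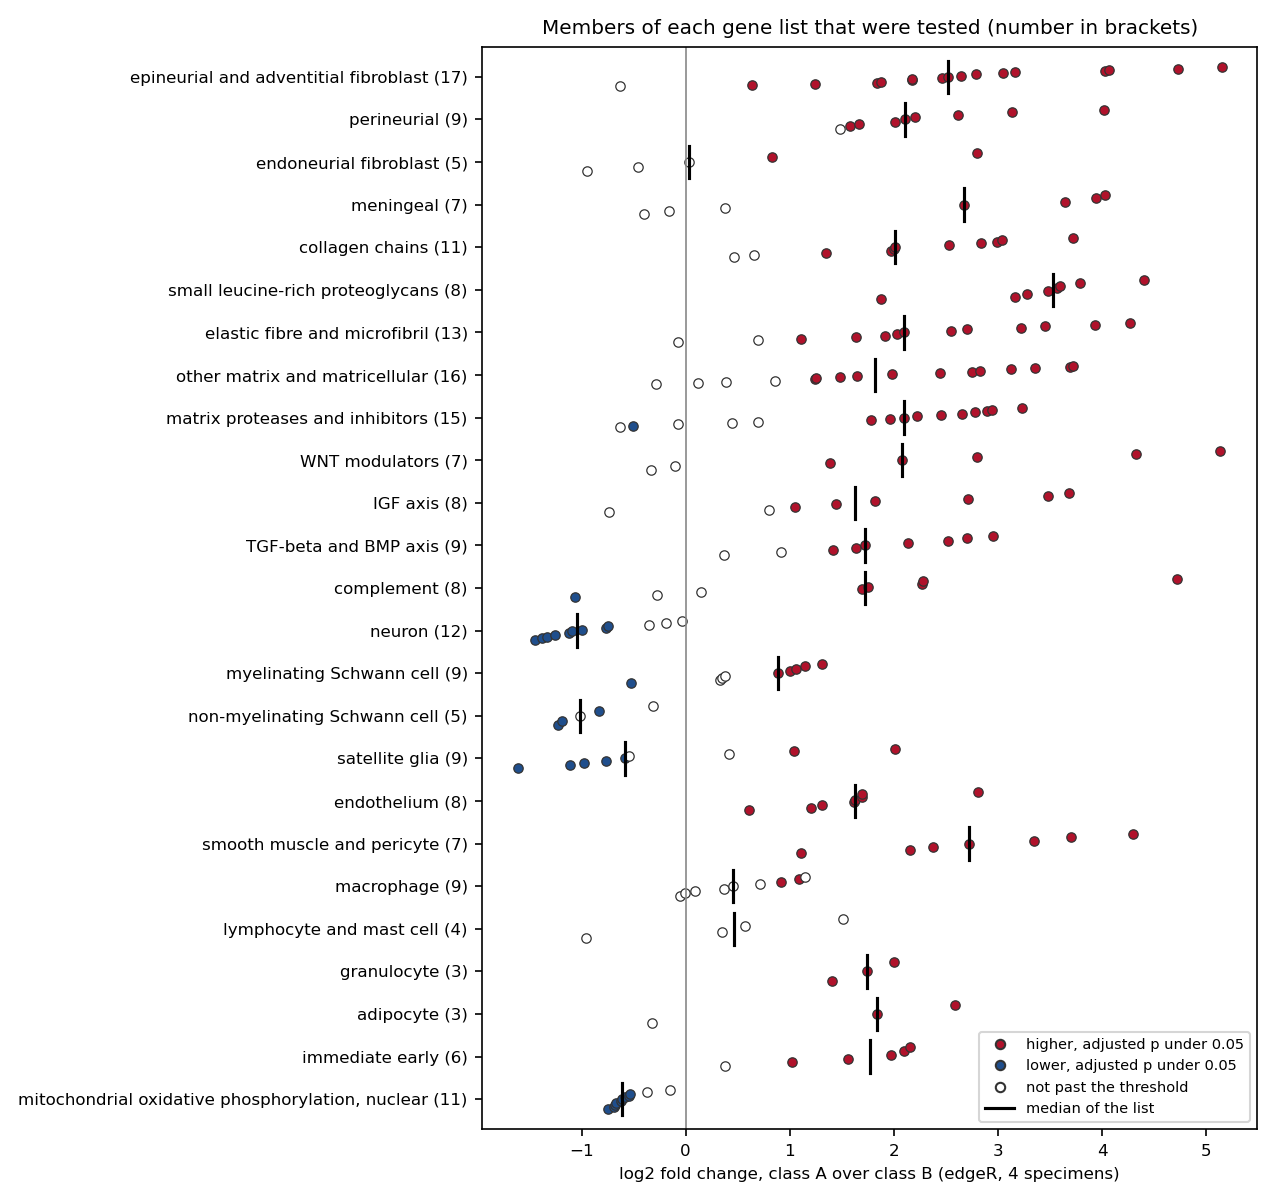
Log2 fold change of class A over class B (edgeR, 4 specimens) for each tested gene of each list; filled points passed an adjusted p of 0.05, open points did not, and the bar is the list's median. Fibroblast and matrix lists lie to the right of 0 with medians of 1.81 to 3.53, except the endoneurial list at 0.03, and the neuron and mitochondrial lists lie to the left with medians of -1.04 and -0.61.

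Markers of other cell types moved with class A in both directions. Smooth muscle and pericyte genes rose in 7 of 7 tested members of 12 listed, with a median of 2.72. Their summed level was 1956 ± 882 CPM in class A and 191 ± 70.7 in class B (SD, n = 4), ran over sections from 197 to 3423 and from 74.7 to 894 CPM, and was higher in 15 of 15 sections. TAGLN, transgelin, stood at 1727, 1268, 1758 and 512 CPM in class A and at 98.2, 97.9, 114 and 64.7 in class B, and rose by 3.70. ACTA2, smooth muscle actin, rose by 3.35. Endothelial genes rose in 8 of 8 tested members of 11 listed, with a median of 1.62 and a summed level of 588 ± 148 against 254 ± 22.2 CPM. Within depth quartiles 4 of 8 endothelial genes (median 0.81) and 5 of 7 smooth muscle genes (median 1.47) rose, and without the 3 sections with few marker UMIs 7 of 7 and 6 of 6 did. With the spots richest in smooth muscle transcripts left out of both classes, 15 of 17 outer-sheath fibroblast genes, 8 of 8 small proteoglycans and 7 of 7 perineurial genes rose. In that comparison 3 of 6 smooth muscle genes and 4 of 7 endothelial genes still rose.

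Neuronal genes fell in 9 of 12 tested members of 16 listed, with a median of -1.04 and 0 rising. NEFL, the light neurofilament, stood at 3828, 3111, 3467 and 4113 CPM in class A and at 9229, 8749, 7869 and 5204 CPM in class B. The classes did not overlap, although the gap was narrow in the male of batch 2, and NEFL fell by 1.09 ± 0.23 (log2, SE, n = 4; edgeR). STMN2, SNAP25 and PRPH fell by 1.38, 1.45 and 1.26. The summed neuronal level was 14634 ± 2369 CPM in class A and 29245 ± 4123 in class B (SD, n = 4), so neuronal transcripts were still present in class A, and ISL1 and POU4F1 were at 0 there. Drawn within depth quartiles, 5 of the tested neuronal genes fell, with a median of -0.25. Nuclear genes of oxidative phosphorylation fell in 9 of 11 tested members of 17 listed, with a median of -0.61, and within depth quartiles 0 passed in edgeR, with a median of -0.14.

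Schwann cell genes were split. Over all genes tested 12.7% rose and 14.0% fell, and within depth quartiles 717 and 403 of 10174 did. Of myelin genes, 5 of 9 tested of 12 listed rose and 1 fell, with a median of 0.88, and within depth quartiles 0 rose and 0 fell. Of genes of non-myelinating Schwann cells, 3 of 5 tested fell and 0 rose, and of satellite glia genes 5 of 9 fell and 2 rose, FABP7 falling by 1.61 and GLUL rising by 1.04. GJA1, which rose, is on both the satellite glia and the perineurial list, and CDH19 is on both the satellite glia and the non-myelinating Schwann cell list. Within depth quartiles 3 of 5 non-myelinating Schwann cell genes still fell, while of 9 satellite glia genes 0 fell and 2 rose. Macrophage genes rose in 2 of 9 tested members, CD68 by 1.09 and CD14 by 0.92, and C1QC stood at 479 ± 210 CPM in class A and 427 ± 102 in class B (SD, n = 4). In the 12 sections with more marker UMIs 4 of 8 macrophage genes rose. Granulocyte genes rose in 3 of 3 tested members. Of 3 tested adipocyte genes FABP4 rose by 2.58, in 4 of 4 specimens, and PLIN1 by 1.84 on 10 UMIs, while the summed list was not higher, at 2273 ± 1771 CPM in class A and 2638 ± 1969 in class B (SD, n = 4). Of that list 1 of 3 rose within depth quartiles, and 1 rose and 1 fell without the 3 sections. Lymphocyte and mast cell genes passed in 0 of 4, on 4 to 13 UMIs each in class A. Immediate early genes, which respond to stimulation and tissue handling, rose in 5 of 6 tested members of 13 listed (median 1.77), with FOS at 668 ± 505 CPM in class A and 140 ± 89.5 in class B. No gene of the red blood cell or skeletal muscle lists passed the filter on low counts. The part of these other cell types in the class A level of genes they share was not tested.

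Spots of class A often ranked high for other lists as well. For each list, the top 5% of spots of a section were taken by summed level. Of class A, 28.9% ± 4.66 (SD, n = 4 specimens) lay in the smooth muscle set, 27.5% ± 4.36 in the meningeal set and 26.4% ± 9.97 in the perineurial set. The corresponding shares of class B were 3.79%, 3.87% and 3.93%. PTGDS made up most of the meningeal sum, at 4057 of 4441 CPM in class A and 319 of 499 CPM in class B. The meningeal set therefore ranked spots largely by PTGDS, which perivascular fibroblasts also make. The endothelial set held 13.3% ± 4.47 of class A and 4.62% of class B, and the macrophage set 7.12% and 4.96%. The myelin set held 4.12% ± 3.34 of class A and 5.11% of class B, the adipocyte set 2.52% and 5.20%, the satellite glia set 2.29% and 5.21%, and the neuron set 0.55% and 5.30%. The meningeal and perineurial sets overlapped class A in 14 and 15 of 15 sections more than class B, and the neuron set in 0. In the 12 sections with more marker UMIs the share of class A was 33.3% in the smooth muscle set, 35.3% in the meningeal set, 28.2% in the perineurial set and 1.75% in the adipocyte set.

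Away from class A the mean fibroblast level was lower with each step over the grid. The outer-sheath list summed to 18954 ± 6374 CPM in class A (SD, n = 4 specimens), 10072 ± 3723 in spots 1 step away, 7010 ± 3202 at 2 steps, 5567 ± 2447 at 3 to 4 steps and 4164 ± 1332 at 5 or more steps. In the 12 sections with more marker UMIs the list ran from 22373 ± 2808 CPM in class A to 4331 ± 1147 at 5 or more steps. The small proteoglycans summed to 5263, 2290, 1280, 853 and 498 CPM over the same steps, and the meningeal list to 4219, 2111, 1077, 759 and 359. Most of the meningeal sum in class A was PTGDS. Smooth muscle genes summed to 1915, 1084, 481, 403 and 150 CPM. Neuronal genes ran the other way, from 14221 ± 3288 in class A to 23718 ± 3686 at 1 step and 28848 ± 3450 at 5 or more. The mean of myelin genes was highest 1 step away, at 7296 ± 5993 CPM, against 6321 ± 4397 in class A and 3503 ± 1433 at 5 or more, a difference within the spread between specimens that was seen in both specimens of batch 1 and in neither of batch 2. The bins held 744, 1290, 1423, 2538 and 8729 spots, and the values are a description with no test.

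**Figure D5:**
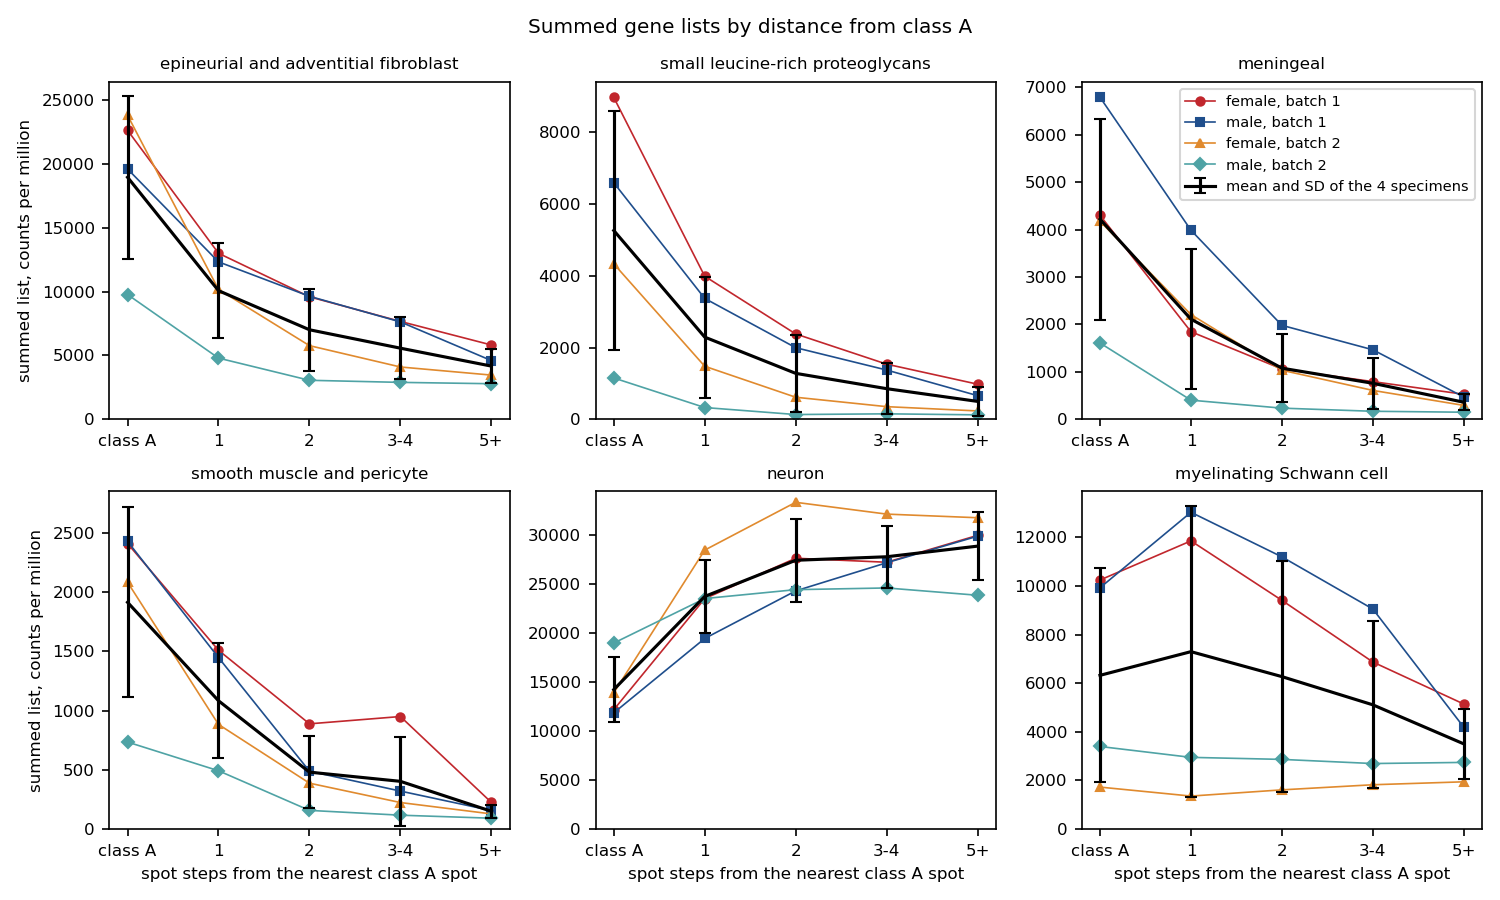
Summed CPM of 6 gene lists in class A and in class B spots 1, 2, 3 to 4 and 5 or more spot steps away; coloured lines are the 4 specimens and the black line is their mean with its SD. The 4 connective tissue and vessel wall panels show lower means from class A outward, the neuron panel higher ones, and the myelin lines of batch 1 lie far above those of batch 2.

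The 2 batches were also compared directly. Within batch 1, 1546 genes were higher and 1994 lower in class A, and within batch 2, 237 were higher and 48 lower, each from 2 specimens in edgeR. The interaction of class with batch passed for 25 of 10094 genes (0.248%), while 616 genes had an unadjusted p under 0.05. The signed log2 difference of class A from class B was higher in batch 2 for 13 genes (0.129%) and lower for 12 (0.119%). CHI3L1, a secreted chitinase-like protein, had the largest positive value among genes with a symbol, 2.94 ± 0.57 (log2, SE; edgeR adjusted p = 0.00024). It stood at 13.9, 7.75, 2372 and 730 CPM in class A of the 4 specimens and at 15.4, 14.9, 176.7 and 417.1 CPM in class B. With 1 CPM added, the log2 ratio of class A to class B was -0.14 and -0.86 in the female and male of batch 1, on few class A UMIs. In the female and male of batch 2 it was 3.74 and 0.81.

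Several genes of this group belong to the connective tissue lists. PRELP, a small proteoglycan, was higher in class A in all 4 specimens, with a difference larger in batch 2 by 1.76 ± 0.37 (log2, SE). OLFML3, a secreted matrix protein, differed by 2.02, WDR86 by 2.67, with 200.7 CPM in class A of the female of batch 2 alone, and the mitochondrial superoxide dismutase SOD2 by 1.88. Smaller or reversed in batch 2 were the class A differences of PTGR1, LMAN1 and BHLHE40, with interactions of -3.07, -2.86 and -2.13. LMAN1 was reversed: it stood at 86.7, 123.9, 6.08 and 21.1 CPM in class A of the 4 specimens. In class B it stood at 47.8, 37.9, 28.4 and 49.2 CPM. PTGR1 was below class B in the male of batch 2, and BHLHE40 in the female of batch 2. CLEC3B, tetranectin, which marks adventitial fibroblasts, stood at 440.3 and 498.3 CPM in class A of batch 1 and at 42.6 and 7.02 CPM in batch 2, against 50.6, 48.5, 24.9 and 10.96 CPM in class B, an interaction of -2.68 ± 0.50 (log2, SE). ITGB4 stood at 887.6, 857.2, 237.2 and 147.4 CPM in class A against 149.1, 159, 152.1 and 157.6 in class B, an interaction of -2.14. Without the 3 sections with few marker UMIs, 65 genes passed, and without section 3 of the male of batch 1, 7 did. Leaving out single sections ended the call of SOD2 in 7 of 15 cases, of CHI3L1, PRELP and LMAN1 in 3 each, of WDR86 in 2 and of BHLHE40 in 1, and that of OLFML3, PTGR1, CLEC3B and ITGB4 in 0. In DESeq2 ITGB4 was the one of these 10 that passed. With class A drawn within depth quartiles 242 genes passed in edgeR, and SOD2 (0.58), PTGR1 (-2.97), CLEC3B (-2.25), ITGB4 (-1.47) and BHLHE40 (-1.81) were among them. CHI3L1 (0.57), WDR86 (1.24), OLFML3 (0.11), PRELP (0.27) and LMAN1 (-0.67) did not pass there. Batch, its Space Ranger version and its smaller number of marker UMIs cannot be told apart.

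The interaction of class with sex passed for 3 genes (0.0297%), with 237 at an unadjusted p under 0.05. The signed log2 difference of class A from class B was higher in males for 1 gene (0.00991%) and lower for 2 (0.0198%). CALCA, the precursor of the neuropeptide CGRP, stood at 104 and 42.6 CPM in class A of the females of batch 1 and 2 and at 214.3 and 687.8 in class A of the males, against 440.3 to 579.6 CPM in class B. The male minus female difference was 2.01 ± 0.45 (log2, SE; edgeR adjusted p = 0.031), and the male of batch 2, which holds both of its sections with few marker UMIs, was the specimen above its class B. The call of CALCA ended in 7 of 15 omissions of a single section and without the 3 sections with few marker UMIs, where the difference was 1.33. CHI3L1 differed by -2.37 ± 0.48 and lost its call in 2 of 15 such omissions, and the third gene had an identifier and no symbol. Within depth quartiles 0 genes passed in edgeR, with 239 at an unadjusted p under 0.05, and CALCA differed by 0.32 and CHI3L1 by -0.60. When the 3 sections with few marker UMIs were left out 2 genes passed, and each sex had 2 specimens.

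Against the spots richest in smooth muscle and pericyte transcripts, with shared spots left out, class A differed in 67 of 2785 genes (2.41%), 44 higher (1.58%) and 23 lower (0.826%). SLPI was higher by 2.06 ± 0.21, PLA2G2A by 1.85 ± 0.13 and CFB by 1.68 ± 0.29 (log2, SE, n = 4; edgeR), followed by PTN, the growth factor pleiotrophin, by 1.64. PTN was higher in 3 of 4 specimens and 11 of 15 sections and did not pass in DESeq2 (adjusted p = 0.305). CFB did not pass without the female of batch 2, at 1.03 (edgeR adjusted p = 0.467), or in DESeq2 (adjusted p = 0.176). Of 14 tested outer-sheath fibroblast genes 8 were higher, among them SEMA3C by 1.28 and PI16 by 1.11, while MGP did not pass, at -0.07. Of 6 tested small proteoglycans 4 were higher, and of 6 tested collagen chains 1, COL1A2 by 0.55. PTGDS was higher by 1.35. The 5 tested perineurial genes did not pass and lay between 0.09, for ITGA6, and 0.30, for ITGB4. Lower in class A were MUSTN1, by -3.35, and PECAM1, an endothelial adhesion molecule, by -1.90. The levels of ACTA2, DES and RGS5, at -3.76, -3.84 and -2.50, chose the comparison spots and are a description. Without the female of batch 2 the count was 39 genes, and without the 3 sections with few marker UMIs it was 74.

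Against the spots richest in myelin transcripts, class A differed in 343 of 3251 genes (10.6%), 157 higher (4.83%) and 186 lower (5.72%). PLA2G2A was higher by 4.62 ± 0.33, CFB by 4.18 ± 0.35, MGP by 3.82 ± 0.30 and EFEMP1 by 3.82 ± 0.28 (log2, SE, n = 4; edgeR), and ENPP6 by 3.94. Outer-sheath fibroblast genes were higher in 9 of 12 tested, small proteoglycans in 5 of 6 and complement genes in 5 of 6. Both tested endoneurial fibroblast genes were lower, ABCA8 by -0.58 and PLXDC1 by -1.08. Of 10 other matrix genes, 2 were higher and 2 lower, SPARC by -1.39 and the laminin chain LAMB1 by -0.94. Lower too were FA2H, which makes myelin lipids, by -2.56, MAL by -2.65 and AURKB, a mitotic kinase, by -2.85. PMP2, at -2.86, was among the genes that chose the comparison spots. The 9 tested neuronal genes did not pass and lay between -0.03, for STMN2, and 0.38, for NEFH. Without the male of batch 1 the count was 149 genes, without the female of batch 1 it was 154, and without the 3 sections with few marker UMIs it was 363.

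The authors' deposited table of Moran's I, which measures the likeness of adjoining spots, covered 16 *M. fascicularis* sections. IGFBP6 had a median of 0.323, from 0.0186 to 0.499, and an adjusted p under 0.05 in 15 sections by the authors' deposited table. In the authors' deposited table SFRP4 had a median of 0.180 and passed in 13 sections, FBLN1 a median of 0.0914 in 11 and MFAP5 a median of 0.04996 in 10. Among class A genes outside the rule, APOD had a median of 0.240 in the authors' deposited table and passed in 16 sections, PTGDS a median of 0.217 in 15, DCN 0.152 in 15 and MGP 0.138 in 14. Other genes higher in class A passed there in fewer sections, BGN and ACKR3 in 9 each and CCDC80 in 8. The share of all genes that passed was not counted.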

How the data were processed

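UMI counts per gene and spot were deposited by the authors as one matrix per section, made with Space Ranger 2.0.0 in the 8 sections of batch 1 and 2.1.0 in the 7 of batch 2, per the file headers. The genome build is Mmul_10 per the submitters' processing notes, although the feature identifiers carry the Ensembl prefix of *M. fascicularis*, so no coordinates are given. Of 22000 features, 15068 had a symbol, and the rest stayed in totals and tests. Moran's I, a score of spatial autocorrelation, and its p-value were deposited by the authors per gene and section and were only described. No sequence was printed.

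The class members, gene lists and tests were chosen with earlier results of these data known. Counts were summed per specimen and class and tested on the deposited counts in edgeR 4.0.16 (R 4.3.3; TMM, filterByExpr with a minimum count of 10, glmQLFit and glmQLFTest, specimen as a block), with Benjamini-Hochberg adjustment over all genes tested and a threshold of 0.05. Both classes of a specimen came from the same sections, so the pairing is part of the design. Position and depth were compared by an exact two-sided sign permutation over 4 specimens. CPM were computed over all features. Named genes of class A against class B had a symbol, passed the test, had the same sign in 4 of 4 specimens and at least 13 of 15 sections and a mean of at least 5 CPM (the 15 largest rises and 10 largest falls). List members, and the 5 called genes with a symbol and the largest change in each direction of the other comparisons, were named with no condition on specimens or sections. A few genes that this rule names are not reported here. Scripts were tested on simulated data.

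Alternatives were DESeq2 1.42.0, limma 3.58.1 (voom), no specimen block, sections as samples, no filter, other UMI minimums and percentiles, scores from spots thinned to 500 UMIs or ranked within depth quartiles, each marker left out, and each specimen or section left out. Alternatives without border spots, smooth muscle spots, TMM or the 3 sections with few marker UMIs, and depth quartiles for the batch and sex comparisons, were chosen after seeing the data. Doublets were not called. Intervals cover counting error only.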

Additional observations from a re-analysis of the deposited data

Results flagged for a closer look

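Of 65 groups of values over specimens or sections, 5 had a sample far from the others, and chance gives about 1 in 20 groups. In the log2 ratio of class A to class B with 1 CPM added, held-out SFRP4 in the female of batch 2 stood at 5.62, with the other specimens between 4.40 and 4.46. Held-out IGFBP6 stood at 2.22 in the male of batch 2, against 3.36 to 3.50 in the others. CLDN11 stood at 4.53 in the female of batch 2, against 3.98 to 4.07, and INSC at -1.10 in the male of batch 2, against -4.44 to -4.23, on its only class A UMI. Among sections of the female of batch 2, the outer-sheath fibroblast list stood at 2.97 in section 1, against 2.56 to 2.59.

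The class A difference differed between batches, by the interaction test in edgeR, for CHI3L1 (2.94), WDR86 (2.67), OLFML3 (2.02), SOD2 (1.88) and PRELP (1.76), with a larger fitted value in batch 2. For WDR86 the log2 ratio with 1 CPM added was 4.58 in the female of batch 2. In the male of batch 2 it was 0.90, below the 1.43 and 1.82 of batch 1. The fitted value was lower in batch 2 for PTGR1 (-3.07), LMAN1 (-2.86), CLEC3B (-2.68), ITGB4 (-2.14) and BHLHE40 (-2.13). For LMAN1 class A was above class B in both specimens of batch 1 and below it in both of batch 2. Between sexes the class A difference differed for CALCA (2.01) and CHI3L1 (-2.37), as male minus female.

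A signal also appeared in data outside the comparisons. Sections labelled *P. anubis* carry gene identifiers with the Ensembl prefix of *M. mulatta*, and those labelled *M. mulatta* carry that of *P. anubis*, so the species of these sections is not settled. By the same rule, section 2 of those labelled *P. anubis* gave 111 class A spots among 2207. Of the 15 named rising genes, 13 were higher there in class A, while ACKR3 and PROCR had 0 UMIs in both classes. All 10 named falling genes were lower. This is 1 library with no test, and the other 3 sections of other labelled species held 11, 29 and 233 spots with enough UMIs.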

How the results depend on the processing

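Among called genes, 58 turned sign within depth quartiles, 4 in thinned spots and 1 without border spots, and none of these was among the 25 named genes. The endoneurial list's median turned negative in some settings. The held-out markers kept direction and call in all their alternatives, which did not include depth quartiles or thinned spots. Of the settings for the 15 rising genes PLA2G2A without the replicate block ended a call. For class A against class B the count of 2703 (1286 higher, 1417 lower) became 967 (546, 421) with no replicate block, 1768 with DESeq2 (lower 710), 874 lower with voom, 862 lower at 1000 UMIs per spot and 782 higher at the 98th percentile. It became 1096 (750, 346) from thinned spots, 1120 (717, 403) within depth quartiles, 876 (660, 216) without IGFBP6, 285 (237, 48) within batch 2 and 847 higher without border spots. Leaving out each specimen or section gave 1267 to 3514 (higher 700 to 1538, lower 567 to 1976), lowest without the male and next without the female of batch 1. With each section as a sample and a replicate block, 2780 of 6701 genes passed. The count of fibroblast and matrix genes called higher, 74, ranged from 54 to 82.

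Class by batch (25) gave 14 at the 90th percentile, 3 with DESeq2, 65 without the 3 sections with few marker UMIs, 242 within depth quartiles and 7 to 45 leaving out single sections. Class by sex (3) gave 0 with no filter, 0 at the 90th percentile, 0 with DESeq2 and 0 within depth quartiles, with 234, 199, 63 and 239 genes at an unadjusted p under 0.05, and 1 to 5 leaving out sections. Against smooth muscle spots (67) the replicate block over sections gave 36, DESeq2 19 and single omissions 39 to 84. Against myelin-rich spots (343) they gave 210, 170 and 149 to 413, and no filter 635. At the 90th percentile the share of class A was 38.6% in the smooth muscle set, 35.4% meningeal, 23.4% endothelial, 13.7% macrophage, 10.54% myelin (10.01% of class B, against 4.12% and 5.11% in the 95th percentile sets), 9.85% adipocyte, 7.13% satellite glia and 2.78% neuron, sets that are larger by construction, and without the 3 sections it was 35.3% in the meningeal and 1.75% in the adipocyte set. Other causes were not tested. Few UMIs in class A limit the falling genes: 63 of 410 settings ended a call.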
